A study of Mus musculus with 6 samples.

Results

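A set of 8 genes of the cholesterol pathway was followed in splenic B cells of mice with and without the tetraspanin CD37. They comprise the sterol enzymes Sqle, Cyp51, Sc5d, Tm7sf2 and Hsd17b7 and the SREBP2 control genes Srebf2, Scap and Insig1. They are 8 of 19935 genes with a probe set of their own, and the brightest such probe set stands for each gene. The 8 were named with earlier results of these arrays known. The WT group held 3 Wild-Type mice and the CD37KO group 3 Cd37 -/- littermates. All were on a C57BL/6J background, 3 months old by the labels and untreated, with 1 array per mouse. The paper's methods give an older age, and its legends for other assays of such B cells a range that includes 3 months. Cells were enriched by removing those with CD43, and B220 staining was used only to judge purity. The labels name no Cre or transgene, so CD37 was missing from other cells of the CD37KO mice too. Values are log2 levels after RMA (robust multi-array average), in which 1 unit is a doubling of signal, and background was taken as 5.76, the 95th percentile of olfactory receptor genes.

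Cells make cholesterol from acetyl-CoA through mevalonate and squalene, and take up the rest from lipoproteins. SREBP2, the product of Srebf2, is a transcription factor made as a precursor in the membrane of the endoplasmic reticulum, where SCAP escorts it and INSIG proteins hold the pair back while sterols are plentiful. When sterols fall, SCAP carries SREBP2 to the Golgi, where proteases release the active factor, which turns on the enzymes of the pathway and also Srebf2 and Insig1. B cells draw on this pathway when they grow and divide, and resting B cells run it at a lower rate.

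Promoter windows are shown for Srebf2, Cyp51 and Insig1, a regulator, an enzyme and a sterol sensor that were each highest in the same array, CD37KO replicate 2. Sc5d was also highest in that array, and its window is not shown. RefSeq windows of build GRCm38.p6, from 250 bases before to 50 after the annotated start, were found for all members but Sqle. Capitals mark matches, on either strand, to ATCACCNCA, a form of the sterol regulatory element, or to CCAAT, the site of NF-Y, a factor that acts with SREBP2. The windows are chr15:82147019-82147318 on the plus strand for Srebf2, chr5:4104648-4104947 on the minus strand for Cyp51 and chr5:28071162-28071461 on the plus strand for Insig1.
Srebf2: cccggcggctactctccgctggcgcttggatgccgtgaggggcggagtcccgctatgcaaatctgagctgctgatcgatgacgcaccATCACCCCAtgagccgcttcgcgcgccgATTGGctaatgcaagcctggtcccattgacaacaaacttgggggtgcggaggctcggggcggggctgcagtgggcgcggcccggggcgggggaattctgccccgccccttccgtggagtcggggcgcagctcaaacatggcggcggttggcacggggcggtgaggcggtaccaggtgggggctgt
Cyp51: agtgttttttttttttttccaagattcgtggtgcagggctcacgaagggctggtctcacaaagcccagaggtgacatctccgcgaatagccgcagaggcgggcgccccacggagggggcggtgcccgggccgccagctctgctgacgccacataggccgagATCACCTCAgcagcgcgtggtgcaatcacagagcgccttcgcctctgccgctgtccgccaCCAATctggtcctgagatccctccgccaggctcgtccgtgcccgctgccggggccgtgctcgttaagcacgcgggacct
Insig1: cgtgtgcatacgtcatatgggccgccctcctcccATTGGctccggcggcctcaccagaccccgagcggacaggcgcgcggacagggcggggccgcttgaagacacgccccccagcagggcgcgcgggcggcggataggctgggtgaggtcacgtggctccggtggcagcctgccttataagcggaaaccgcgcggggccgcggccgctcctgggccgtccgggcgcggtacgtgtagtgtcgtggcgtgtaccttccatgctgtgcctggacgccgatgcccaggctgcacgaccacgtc

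ATCACCNCA was found 163 bases before the start of Srebf2 and 89 bases before that of Cyp51, and in no window of the other 5 members searched. It was present in 0.782% of all 32851 windows. CCAAT was found in 6 of the 7 members, Scap being the exception, and in 37.4% of all windows. Another form, TCACNCCAC, was found in none of the 7 and in 1.24% of all windows, and the Sp1 site GGGCGG in all 7 and in 35.7% of all windows. ATCACCNCA was chosen after the windows of the members had been seen, and a match describes the letters only.

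None of the 8 members passed the limma test of CD37KO against WT (adjusted p threshold 0.05), which 0.0552% of all genes passed. Of the 8, 7 had a higher mean in CD37KO cells, by 0.0091 to 0.23 on the log2 scale, and Srebf2, the other, took either sign with the scaling of the arrays. A higher mean in CD37KO cells was found for 8337 of all 19935 genes and for 5629 of the 9881 above background in every array. The median log2 difference of the 8 members was 0.11, beside -0.019 over all genes and 0.017 over genes above background. At an unadjusted p under 0.05, 1 member, Tm7sf2, was higher and none was lower, against 2.96% of all genes higher and 2.99% lower. Adjusted p-values of the 8 members lay between 0.801 and 0.994.

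Within the CD37KO group the members were not alike. In all 8 genes the highest pair of arrays was CD37KO replicates 2 and 3, which held for 4.27% of all genes and 4.44% of those above background. With quantile normalization applied again it held for 6 members, and with each array centred on its median for 7. CD37KO replicate 1 lay within or below the WT range for Srebf2, Sqle, Cyp51, Tm7sf2, Hsd17b7 and Insig1. The mean level over the 8 genes was 8.37, 8.42 and 8.41 in WT replicates 1, 2 and 3, and 8.39, 8.56 and 8.56 in CD37KO replicates 1, 2 and 3. The members were proposed with results of these arrays known, so this shared rank describes the 8 genes and was not tested.

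**Figure D1:**
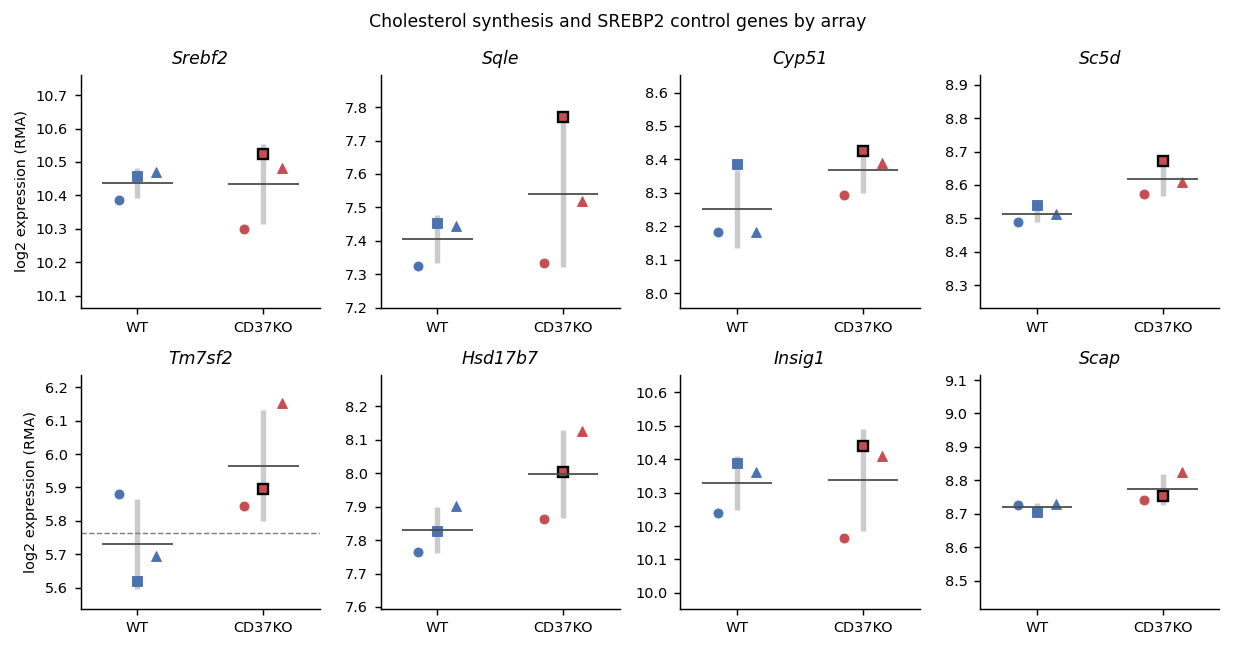
Log2 expression (RMA) of the 8 genes in the 3 WT (blue) and 3 CD37KO (red) arrays, where circles are replicate 1, squares replicate 2 and triangles replicate 3, with the mean as a line and the SD as a grey bar; CD37KO replicate 2 is outlined in black and each panel spans the same log2 distance. The square and triangle of CD37KO are the highest pair in every panel as deposited (6 or 7 of 8 under other scalings), the dashed line for Tm7sf2 is the background of 5.76, and replicate 1 of CD37KO lies below every WT array for Srebf2 and Insig1.

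Sqle encodes squalene epoxidase, which oxidises squalene at the entry to the sterol branch (Entrez Gene 20775). Its log2 level was 7.32, 7.45 and 7.44 in WT replicates 1, 2 and 3 and 7.33, 7.77 and 7.52 in CD37KO replicates 1, 2 and 3. CD37KO replicate 2 stood apart from all other arrays and CD37KO replicate 1 sat at the lower end of the WT arrays, so the groups overlapped. The group means were 7.41 ± 0.072 (SD, n = 3) and 7.54 ± 0.22 (SD, n = 3), a log2 difference of 0.13 (SE, the standard error, 0.11, 95% confidence interval -0.11 to 0.38, limma adjusted p = 0.829). Without CD37KO replicate 2 the log2 difference was 0.020.

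Cyp51, the lanosterol demethylase (Entrez Gene 13121), was at 8.18, 8.39 and 8.18 in the WT arrays and 8.29, 8.43 and 8.39 in the CD37KO arrays, on the log2 scale and in replicate order. WT replicate 2 was level with CD37KO replicate 3, and the groups overlapped. The log2 difference was 0.12 (SE 0.078, 95% interval -0.059 to 0.30, limma adjusted p = 0.809). Sc5d encodes the desaturase that acts on lathosterol late in the pathway (Entrez Gene 235293). Its log2 level was 8.49, 8.54 and 8.51 in the WT arrays and 8.57, 8.67 and 8.61 in the CD37KO arrays, with no overlap between the groups. Every CD37KO array was above every WT array for 4.33% of all genes, and for 2 of the 8 members. The log2 difference of Sc5d was 0.10 (SE 0.060, limma adjusted p = 0.801), and an exact two-sided permutation test of this gene alone gave p = 0.10, the smallest possible with 3 against 3.

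Tm7sf2 encodes a sterol reductase of the endoplasmic reticulum (Entrez Gene 73166) and was the dimmest member. Its log2 level was 5.88, 5.62 and 5.69 in the WT arrays and 5.85, 5.90 and 6.15 in the CD37KO arrays, so WT replicates 2 and 3 lay below background. It had the largest log2 difference of the 8 on the deposited values, 0.23 (SE 0.10, 95% interval 0.0004 to 0.47, unadjusted p = 0.0497, limma adjusted p = 0.801), and the groups overlapped through WT replicate 1. Without CD37KO replicate 3 this difference was 0.14 (unadjusted p = 0.181 in limma), below that of Sqle at 0.15, and with array weights it was 0.16 (unadjusted p = 0.131 in limma), below that of Hsd17b7 at 0.21. Lbr, the lamin B receptor, carries out the same reduction of the sterol ring and also anchors the nuclear envelope. Its log2 level was 10.22, 10.29 and 10.16 in the WT arrays and 10.08, 10.11 and 10.01 in the CD37KO arrays, a log2 difference of -0.16 (SE 0.065, unadjusted p = 0.0414, limma adjusted p = 0.801). For Lbr every CD37KO array lay below every WT array, opposite in sign to Tm7sf2, and neither difference passed the adjustment.

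Hsd17b7, a reductase of the sterol demethylation complex (Entrez Gene 15490), was at 7.76, 7.83 and 7.90 in the WT arrays and 7.86, 8.004 and 8.13 in the CD37KO arrays on the log2 scale. CD37KO replicate 1 lay inside the WT range and the other CD37KO arrays above it. The log2 difference was 0.17 (SE 0.081, 95% interval -0.020 to 0.35, limma adjusted p = 0.801).

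Srebf2 (Entrez Gene 20788) had log2 levels of 10.39, 10.46 and 10.47 in the WT arrays and 10.30, 10.53 and 10.48 in the CD37KO arrays. The lowest and the highest of the 6 arrays were both CD37KO. Both group means were 10.44, with an SD of 0.044 over the WT and 0.12 over the CD37KO arrays. The log2 difference was -0.0027 (SE 0.076, 95% interval -0.18 to 0.17, limma adjusted p = 0.994). Insig1, which retains SCAP in the endoplasmic reticulum (Entrez Gene 231070), followed the same order of CD37KO arrays, with 10.24, 10.39 and 10.36 in WT and 10.16, 10.44 and 10.41 in CD37KO. Its log2 difference was 0.0091 (SE 0.088, 95% interval -0.19 to 0.21, limma adjusted p = 0.986). Scap (Entrez Gene 235623) varied least of the 8, from 8.71 to 8.83 over all arrays. Its CD37KO arrays lay just above its WT arrays, with a log2 difference of 0.053 (SE 0.059, limma adjusted p = 0.862).

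**Figure D2:**
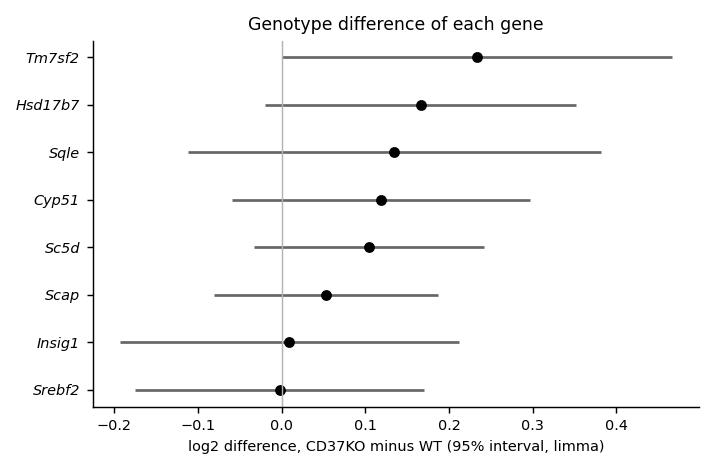
Log2 difference between CD37KO and WT (points, 3 arrays each) with the 95% interval from limma (lines) for each of the 8 genes, in order of size; the grey vertical line marks 0. Srebf2 and Insig1 lie next to 0, the enzymes lie to the right of 0, and only the interval of Tm7sf2 (0.0004 to 0.47) does not reach below 0.

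CD37KO replicate 2 was set against the other 5 arrays because this array had stood out in earlier results of these data. A single array has no replicate, so the values are a description. Srebf2, Sqle, Cyp51, Sc5d and Insig1, 5 of the 8 members, were highest in this array, and none was lowest there. Over all genes, 14.2% were highest and 12.4% lowest in CD37KO replicate 2, and among genes above background in every array 9.16% were highest. The other 3 members, Tm7sf2, Hsd17b7 and Scap, were highest in CD37KO replicate 3, as were 14.3% of all genes and 18.8% of those above background.

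The distances were small. CD37KO replicate 2 exceeded the mean of the other 5 arrays by 0.36 on the log2 scale for Sqle, a fold of 1.28, where the SD of the other 5 arrays was 0.083. The excess was 0.14 for Cyp51, 0.13 for Insig1, 0.13 for Sc5d and 0.11 for Srebf2, with SDs of the other arrays of 0.10, 0.11, 0.048 and 0.076. For Hsd17b7, Tm7sf2 and Scap the excess was 0.11, 0.057 and 0.0068, less than the SD of the other arrays (0.14, 0.21 and 0.047). With 1 array left out the excess of Tm7sf2 ran from 0.0026 (without WT replicate 2) to 0.14 (without CD37KO replicate 3), and that of Hsd17b7 from 0.075 (without WT replicate 1) to 0.17 (without CD37KO replicate 3). No member lay above every other array and above their mean by 0.5 or more, as 0.0702% of all genes did. The median excess over the 8 members was 0.12, beside 0.0059 over all genes and -0.016 over genes above background. In the same measure, CD37KO replicate 3 had a member median of 0.093, and the other 4 arrays had medians from -0.10 to -0.029.

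Of 22 cholesterol synthesis enzymes listed from general knowledge, 19 were measured, 5 of them members. Among the 14 that are not members, 10 had a higher mean in CD37KO cells, as did 5629 of the 9881 genes above background. The median log2 difference of the 14 was 0.071, and 1 (Lbr) was lower at an unadjusted p under 0.05. In CD37KO replicate 2, 4 of these 14 were highest (Hmgcs1, Mvk, Idi1 and Fdft1) and none was lowest. Over all 19 enzymes the count highest in this array was 7 as deposited, 10 with quantile normalization applied again and 8 with median centring, while the count of the 8 members stayed at 5. Idi1, the isomerase that makes the isoprenoid building block, was at 9.05, 8.84 and 9.02 in WT and 8.96, 9.31 and 8.97 in CD37KO arrays on the log2 scale. CD37KO replicate 2 exceeded the mean of the other 5 arrays by 0.34 and the nearest, WT replicate 1, by 0.25. No other array exceeded 9.05. Hmgcs1, the synthase that commits acetyl units to the pathway, was at 8.74, 8.73 and 8.70 in WT and 8.54, 8.89 and 8.82 in CD37KO arrays. Fdft1, which makes squalene, was above the mean of the other arrays in CD37KO replicate 2 by 0.25, but WT replicates 1, 2 and 3 were at 8.17, 7.73 and 8.41, and its level of 8.42 there was 0.005 above WT replicate 3.

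CD37KO replicates 2 and 3 were the highest pair for 2 of these 14 enzymes, Hmgcs1 and Pmvk, against all 8 members. The same pair was highest for 4.27% of all genes and 4.44% of those above background. Most of the 14, like most genes, had another highest pair. The mean level of the 14 was also highest in CD37KO replicates 2 and 3 (7.98 and 7.96, against 7.83 to 7.92 in WT and 7.87 in CD37KO replicate 1). Mvd, Lss and Dhcr7 had log2 values in CD37KO replicate 2 that differed from the mean of the other arrays by -0.040, -0.042 and -0.086.

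Of 15 listed SREBP control genes 12 were measured, and none passed an unadjusted p under 0.05. Srebf1, which encodes SREBP1, was at 7.66, 7.79 and 7.73 in WT and 7.84, 7.79 and 7.94 in CD37KO arrays, a log2 difference of 0.13 (SE 0.068, limma adjusted p = 0.801). Insig2, the paralogue of Insig1, was at 8.15, 8.25 and 7.97 in WT and 7.84, 8.04 and 7.89 in CD37KO arrays, a log2 difference of -0.20 (SE 0.089, limma adjusted p = 0.801), where Insig1 had one of 0.0091. Among the 9 control genes that are not members none was highest in CD37KO replicate 2, and 1, Erlin2, was lowest there. Its log2 level lay 0.41 below the mean of the other arrays and 0.20 below the nearest, WT replicate 3. Erlin2 belongs to a complex of the endoplasmic reticulum that takes part in protein degradation and binds the SREBP machinery.

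Of 14 measured fatty acid genes driven by SREBP1, 3 were highest in CD37KO replicate 2 (Fasn, Acaca and Me1, the last below background in every array) and 2 were lowest (Scd1 and Fads1). Acaca, the carboxylase that commits acetyl-CoA to fatty acids, was at 8.11, 8.29 and 8.12 in WT and 8.30, 8.44 and 8.30 in CD37KO arrays, with a log2 difference of 0.17 (SE 0.076, limma adjusted p = 0.801). The 13 measured genes of the isoprenoid branch had a median log2 difference of 0.0076, and none was highest in CD37KO replicate 2.

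**Figure D3:**
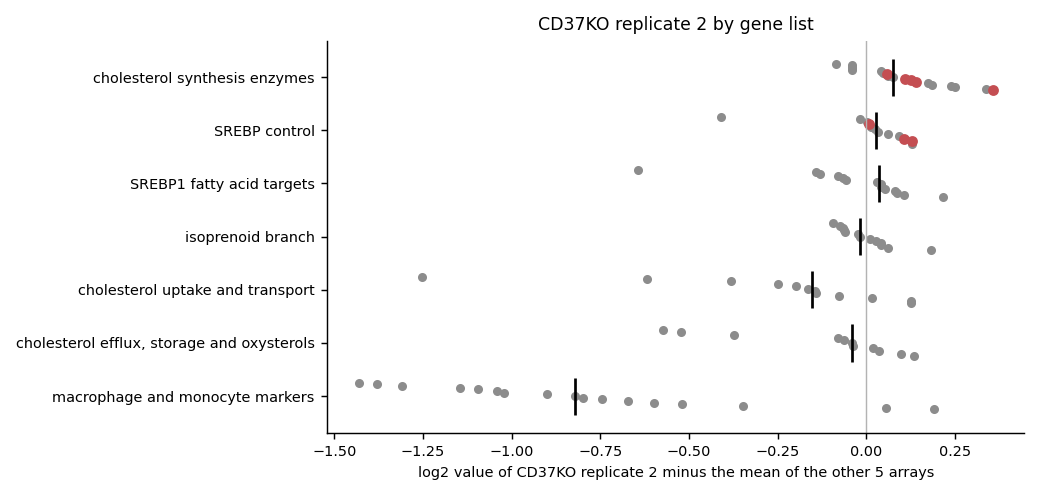
Log2 value of CD37KO replicate 2 minus the mean of the other 5 arrays for each measured gene (points) of 7 lists (rows), with the list median as a black bar and the 8 followed genes in red. The synthesis enzymes have a median of 0.076 and reach 0.36 at Sqle, while the macrophage and monocyte markers have a median of -0.82.

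Several genes of uptake and efflux were low in CD37KO replicate 2. Of 12 measured uptake and transport genes 5 were lowest in this array, one of them (Gramd1c) below background throughout, and 2 were highest, Stard4 and Vldlr, the latter below background throughout. Of 11 efflux, storage and oxysterol genes 4 were lowest, among them Gpr183 and Abcg1, which were lowest by only 0.003 and 0.01. Over all genes 12.4% were lowest in this array, and 14.9% of those above background. Lrp1, a scavenging lipoprotein receptor, was at 8.66, 8.07 and 7.63 in WT and 8.97, 7.26 and 9.21 in CD37KO arrays. CD37KO replicate 2 lay below the mean of the other 5 by 1.25 and below the nearest, WT replicate 3, by 0.37. Against the mean of the other 5 arrays, Scarb1, the receptor for high-density lipoprotein, was 0.62 lower there and Apoe, the lipid carrier apolipoprotein E, 0.52 lower. Both were at their lowest. Nr1h3, which encodes the oxysterol sensor LXR alpha, was at 7.43, 6.63 and 6.82 in WT and 7.80, 6.71 and 7.75 in CD37KO arrays. Its lowest array was thus WT replicate 2, and CD37KO replicate 2 lay within the WT range. None of these 4 genes differed between the genotypes at an unadjusted p under 0.05 from limma (adjusted p from 0.809 to 0.983).

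Levels of markers of other cell types also varied between these arrays. Over 17 macrophage and monocyte markers the mean log2 level ran from 8.24 to 8.98 in WT and from 7.92 to 9.06 in CD37KO arrays. It was lowest in CD37KO replicate 2, where 13 of the 17 were at their lowest, and highest in CD37KO replicate 3. Slc40a1, Vcam1 and Hmox1 were the brightest of these markers, and Marco and Ccr2 were below background in every array. The mean level of the 8 cholesterol genes was 8.56 in each of these 2 CD37KO arrays. The part of macrophages in the members' levels, and in those of Lrp1, Scarb1, Nr1h3 and Apoe, was not tested. Neutrophil markers (15 measured, Ngp, Lcn2 and S100a9 the brightest, Prtn3 below background throughout) averaged 5.93 to 6.16 in WT and 7.69, 6.42 and 7.03 in CD37KO replicates 1, 2 and 3, and 12 of the 15 were higher in CD37KO cells at an unadjusted p under 0.05, none after adjustment. Within the CD37KO group the neutrophil mean was highest in replicate 1, where the mean of the 8 cholesterol genes was lowest. The part of neutrophils in the members' values was not tested. The 14 genes listed as B cell markers, among them Ms4a1, Ptprc and Ebf1, averaged 11.41 to 11.49 in WT and 11.42 to 11.43 in CD37KO arrays. The protein forms of Ptprc include B220, and its value here is for the whole gene. Spn, which encodes CD43, was above background in all arrays, from 6.83 to 7.09, and like 5 of the members was highest in CD37KO replicate 2. In bulk RNA, fewer cells of a type and less RNA per cell cannot be told apart.

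Among the other marker lists, cell cycle genes (9 measured, Mki67, Mcm2 and Mcm5 the brightest) averaged 7.07 to 7.59 in WT and 7.79, 7.22 and 7.86 in CD37KO replicates 1, 2 and 3. The part of cell cycling in the members' levels was not tested. Plasma cell markers (7 measured) averaged 8.21 to 8.31 in WT and 8.28 to 8.43 in CD37KO arrays. T cell markers stayed between 5.73 and 5.85, with Cd3d, Cd3g and Trat1 below background in every array. Erythroblast markers (7 measured) averaged 5.62 to 5.98 in WT and 5.62 to 6.12 in CD37KO arrays. Endothelial and stromal markers split by genotype, with averages of 6.40 to 6.57 in WT and 6.24 to 6.28 in CD37KO arrays. All 10 measured had a lower mean in CD37KO cells, 3 of them (Igfbp7, Sparc and Kdr) at an unadjusted p under 0.05 and none after adjustment. Kdr was below background in every array, and Pecam1, the brightest of the list, had a log2 difference of -0.018. Dendritic cell markers (9 measured) averaged 6.61 to 6.65 in WT and 6.50 to 6.59 in CD37KO arrays, with 2 lower at an unadjusted p under 0.05 and none after adjustment. Each of these 3 lists had 3 markers below background throughout, and the part of these cells in the genotype differences of the members was not tested. Cd37 (Entrez Gene 12493), the deleted gene, averaged 11.97 (SD 0.13) over the WT arrays and lay between 8.15 and 8.17 in every CD37KO array.

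**Figure D4:**
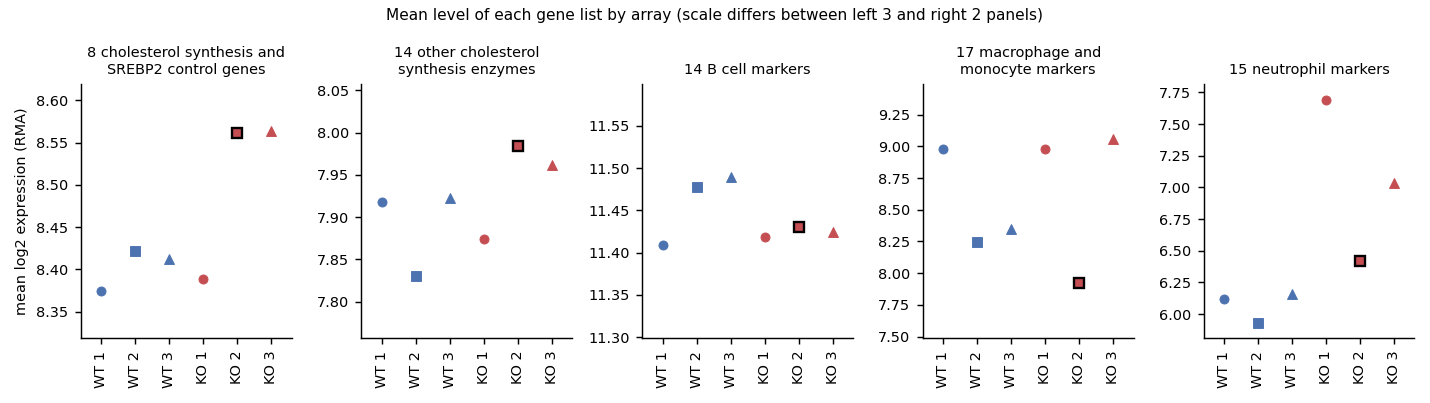
Mean log2 expression (RMA) per array of the 8 followed genes, the 14 other cholesterol synthesis enzymes and the B cell, macrophage and monocyte, and neutrophil markers, with WT in blue, CD37KO in red and CD37KO replicate 2 outlined; the left 3 panels share one log2 span and the right 2 a wider one. The mean of the 8 genes was 8.56 in each of CD37KO replicates 2 and 3, where the macrophage and monocyte mean was 7.92 and 9.06. The part of macrophages was not tested.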

How the data were processed

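RNA of CD43-, B220+ splenocytes from 3 WT and 3 CD37KO mice was hybridised to Affymetrix mouse gene arrays. The authors deposited log2 values per probe set after RMA, named with build mm8 in the submitters' processing notes. Which software ran RMA was not stated. RMA draws low signals together, which can shrink differences of dim genes, and its effect on Tm7sf2 was not tested. Of 35361 probe sets, the 21780 that name 1 gene were used, with names checked by Entrez Gene ID in the GRCm38.p6 table, and the brightest per gene was kept. CD37KO was compared with WT in limma 3.58.1 (R 4.3.3, lmFit and eBayes, Benjamini-Hochberg over 19935 genes, threshold 0.05), tested on simulated data beforehand. The members, gene lists and array singled out were chosen with earlier results of these data known. Genes named besides the members have the smallest p or the largest distance of CD37KO replicate 2 within their list, or are the brightest markers. Those named in counts of the highest or lowest array, and Lss, Mvd and Dhcr7, were named after their values were seen. Alternatives covered normalization, centring, probe sets, dim genes, the variance model, array weights, the replicate block, background and each array left out. The number of arrays limits the precision. Listed genes without a probe set of their own are not reported here.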

Additional observations from a re-analysis of the deposited data

How the results depend on the processing

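Over all alternatives the lowest adjusted p of any member was 0.223 (array weights), so none passed. The count of genes called, 11, became 3 with ordinary least squares, 19 with array weights, 4 with the replicate block, and 4 to 14 with 1 array left out, 14 without CD37KO replicate 2, 4 without WT replicate 1 or CD37KO replicate 1 or 3, 5 without WT replicate 3 and 6 without WT replicate 2. Replicate numbers did not pair the arrays (r of deviations 0.24, 0.0068 and -0.14 for numbers 1, 2 and 3), and not every array correlated best with its own number. Of 111 recomputed member differences 102 kept their sign, but this count includes settings that could not move a difference. The variance model, the replicate block and the filter on dim genes leave it unchanged, and the mean of the probe sets changed no member. Srebf2 turned to 0.0087 with quantile normalization applied again, 0.0038 with median centring and 0.016 with array weights, and ran from -0.048 to 0.066 with 1 array left out (positive without WT replicate 2, WT replicate 3 or CD37KO replicate 1). Insig1 ran from -0.042 to 0.096 (negative without WT replicate 1 or CD37KO replicate 2 or 3), and the member median from 0.070 without CD37KO replicate 2 to 0.14. Sqle was at 0.074 with quantile normalization applied again, and with 1 array left out ran from 0.020 to 0.24. Cyp51 was at 0.077 with quantile normalization applied again and 0.19 without WT replicate 2. Hsd17b7 was at 0.10 and Scap at 0.026 without CD37KO replicate 3, and Scap at 0.023 with quantile normalization applied again. Against CD37KO replicates 1 and 3 only, CD37KO replicate 2 was at -0.10 for Tm7sf2 and -0.031 for Scap, and with 1 array left out Scap ran from -0.0030 (without WT replicate 2) to 0.027. Of 87 such values 84 kept their sign, where the filter on dim genes and the mean of the probe sets again changed none. The following settings were added after the data were seen. CD37KO replicate 2 was highest for 8 members without CD37KO replicate 3, which their shared highest pair already fixes, and for 905 genes where only those above background were counted, against 2839. CD37KO replicates 2 and 3 were the highest pair for 6 members with quantile normalization applied again and 7 with median centring.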

Other observations

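Among genes above background, those with the profile over the 6 arrays most like the mean of the 8 mean-centred members were A530032D15Rik, Mfsd5, Polr2d, Fanca and Ctxn3, with Pearson's r of 0.98, 0.97, 0.96, 0.96 and 0.95. Of 9874 genes compared, 33 had an r of 0.9 or more, which is 0.334%. None of the 5 named genes was on a cholesterol list, and their levels spanned 0.084 to 0.29 on the log2 scale.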
